A study of Mus musculus with 2 samples.

Results

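The genes described are the 4 Id genes and the 2 inhibitory Smads, Id1, Id2, Id3, Id4, Smad6 and Smad7, which were taken by symbol and make up 6 of the 32245 gene symbols counted. They were measured by single-cell RNA sequencing in adrenal glands of female C57BL/6J mice at 9 weeks and at 6 weeks of age. Both ages carried the same genotype, SF1-Cre+;Znrf3Fx/Fx, a conditional deletion: the SF1 promoter drives Cre in steroidogenic cells, and both Znrf3 alleles are floxed. Znrf3 encodes an E3 ligase that removes Wnt receptors from the cell surface. The 9-week library was made from 3 adrenals and the 6-week library from 2 adrenals, with 1 library per age and no library without Cre is analysed here. The question put to the 6 genes is how their levels differ between cortical zones, endothelium and immune classes, and between the ages within each.

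Id proteins carry the helix-loop-helix domain that lets transcription factors of this family pair, but lack the basic region that contacts DNA. They bind E proteins (Tcf3, Tcf4 and Tcf12) and so keep them from DNA. Id1, Id2 and Id3 are known targets of bone morphogenetic proteins (BMPs), whose receptors phosphorylate Smad1, Smad5 and Smad9, which then enter the nucleus with Smad4. Smad6 and Smad7 are induced by the same family of ligands and close the loop: Smad6 acts mainly on BMP receptors, and Smad7 on receptors of both BMPs and TGF-beta, to which it brings Smurf ubiquitin ligases. In endothelium the BMP receptor Acvrl1 and its partner Eng are known to sustain Id1 and Id3, while Id2 is needed for the development of NK cells, innate lymphoid cells and type 1 dendritic cells, and Id3 restrains E proteins in B and T cells.

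On mm10, with positions from GENCODE M21, Id1 (ENSMUSG00000042745) lies at chr2:152736251-152737410 on the plus strand and Id2 (ENSMUSG00000020644) at chr12:25093799-25097140 on the minus strand. Id3 (ENSMUSG00000007872) lies at chr4:136143497-136145755 and Id4 (ENSMUSG00000021379) at chr13:48261228-48266026, both on the plus strand. Smad6 (ENSMUSG00000036867) spans chr9:63953076-64022059 on the minus strand, and the identifier of Smad7 is ENSMUSG00000025880. All 6 are protein-coding genes. No other annotated gene overlaps 5 of them, and Id4 is overlapped by A330033J07Rik and Gm49291, both on the other strand.

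RefSeq promoter windows, from 250 bases before to 50 bases after the annotated start on GRCm38.p6, were matched for 4 of the 6 genes, Id2, Id3, Id4 and Smad6. The 3 windows printed are of Id3, which was higher at 9 weeks in cortical cells, of Id2, which was not, and of Smad6, the inhibitory Smad with a matched window. In Id2 and Id3 the RefSeq start lies downstream of the GENCODE start. Capitals mark matches to the Smad-binding letters CAGAC on either strand (GTCTG on the other), to the palindrome GTCTAGAC, and to GGCGCC, the GC-rich part of the BMP-responsive element known from Id1.
Id3, chr4:136143572-136143871, plus strand: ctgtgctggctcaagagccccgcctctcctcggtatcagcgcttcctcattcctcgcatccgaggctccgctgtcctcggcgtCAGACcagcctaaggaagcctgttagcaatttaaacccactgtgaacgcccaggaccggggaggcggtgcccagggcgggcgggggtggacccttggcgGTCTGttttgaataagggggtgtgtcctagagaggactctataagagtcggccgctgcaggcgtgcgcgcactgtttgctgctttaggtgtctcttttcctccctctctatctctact
Id2, chr12:25096043-25096342, minus strand: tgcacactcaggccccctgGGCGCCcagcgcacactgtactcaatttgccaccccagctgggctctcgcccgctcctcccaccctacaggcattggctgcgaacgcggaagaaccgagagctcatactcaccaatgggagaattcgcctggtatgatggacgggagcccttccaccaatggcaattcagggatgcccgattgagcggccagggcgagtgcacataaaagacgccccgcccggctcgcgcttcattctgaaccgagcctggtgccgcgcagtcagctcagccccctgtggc
Smad6, chr9:64022010-64022309, minus strand: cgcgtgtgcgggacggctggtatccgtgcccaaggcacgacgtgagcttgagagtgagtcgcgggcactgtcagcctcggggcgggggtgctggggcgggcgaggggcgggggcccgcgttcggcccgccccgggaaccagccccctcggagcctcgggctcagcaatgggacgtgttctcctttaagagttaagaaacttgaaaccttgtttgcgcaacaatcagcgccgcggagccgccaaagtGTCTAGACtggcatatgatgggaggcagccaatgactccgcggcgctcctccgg
The Id3 window held CAGAC at -167 from the start and its reverse complement GTCTG at -68, letters that 49.6% of all 32851 windows of this length hold. GGCGCC, found in 11.9% of windows, stood at -231 in Id2 and at -148 in Id4. The palindrome GTCTAGAC stood at -4 in Smad6 and in 0.213% of all windows. The BMP-responsive element itself, GGCGCC followed at a fixed distance by GTCT, was in none of the 4 windows on either strand and in 0.0731% of all. The windows of Id2, Id3, Id4 and Smad6 had GC contents of 63.3%, 60.0%, 73.3% and 66.3%, against a median of 52.7%. These matches describe letters in a window and say nothing of binding.

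Unique molecular identifiers (UMIs) were analysed in 9941 cells of the 9-week library, median depth 7029, and in 8133 cells of the 6-week library, median depth 11348. The libraries shared 29 barcodes, of which 26 were among the cells kept. Clusters were rebuilt from the counts without the 6 genes and are named by markers with "-like". Where values depart from the study, the rebuilt naming may be the source. Over the 3 cortical zones Nr5a1, which encodes SF1, stood at 254 and Star at 1774 UMIs per 1000000 UMIs of the class (CPM) at 9 weeks, against 303 and 2079 CPM at 6 weeks. Znrf3 was counted at 55.0 CPM at 9 weeks and 45.9 CPM at 6 weeks, but the labels do not say which part is deleted and the reads come from the 3' end of transcripts, so this checks nothing. Outer-cortex-like cells (670 at 9 weeks, 573 at 6 weeks) carried Wnt4, Dab2 and Hsd3b6, and fasciculata-like cells (717 at 9 weeks, 2652 at 6 weeks) carried Cyp11b1. Intermediate-cortex-like cells (670 at 9 weeks, 478 at 6 weeks) scored alike for both zones. The inner-cortex-like cluster, led by Cyp2f2, held 40 cells at 9 weeks and 586 at 6 weeks, and is described by its values only.

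Levels are UMIs summed over the cells of a class and scaled to CPM within that class and library, with an exact Poisson 95% interval. With 1 library per age there is no test across libraries, and all intervals cover counting error only. Ratios of 9 over 6 weeks carry a range built from the bounds of both intervals. A gene counts as higher or lower when either library had at least 10 CPM, both together had at least 10 UMIs, and the levels differed by at least 1.5-fold with 5 CPM added to both levels. Across 11 classes the 6 genes passed the floor in 39 pairs of gene and class, and 8 of the 39 passed the fold. Summed RNA of a class cannot tell fewer cells with a gene from less RNA per cell, so shares of cells are given beside the main levels.

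Each gene had its own distribution over the classes. Endothelial-like cells held 24.2% of all Id1 UMIs at 9 weeks and 36.9% at 6 weeks, and adrenocortical-like cells 66.7% and 58.1%. For Id3 the endothelial-like share was 51.7% at 9 weeks and 61.7% at 6 weeks. Of Id2 UMIs, adrenocortical-like cells held 58.4% and immune cells 35.1% at 9 weeks, against 93.2% and 4.92% at 6 weeks. For Id4, endothelial-like cells held 74.2% of its 9-week UMIs and 89.5% of its 6-week UMIs. Smad6 UMIs were mostly cortical (72.6% at 9 weeks and 93.0% at 6 weeks), while those of Smad7 were spread, with 40.3% cortical, 12.3% endothelial and 36.8% immune at 9 weeks, against 69.7%, 13.3% and 11.6% at 6 weeks. These shares also follow the number and depth of cells in each class.

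**Figure D1:**
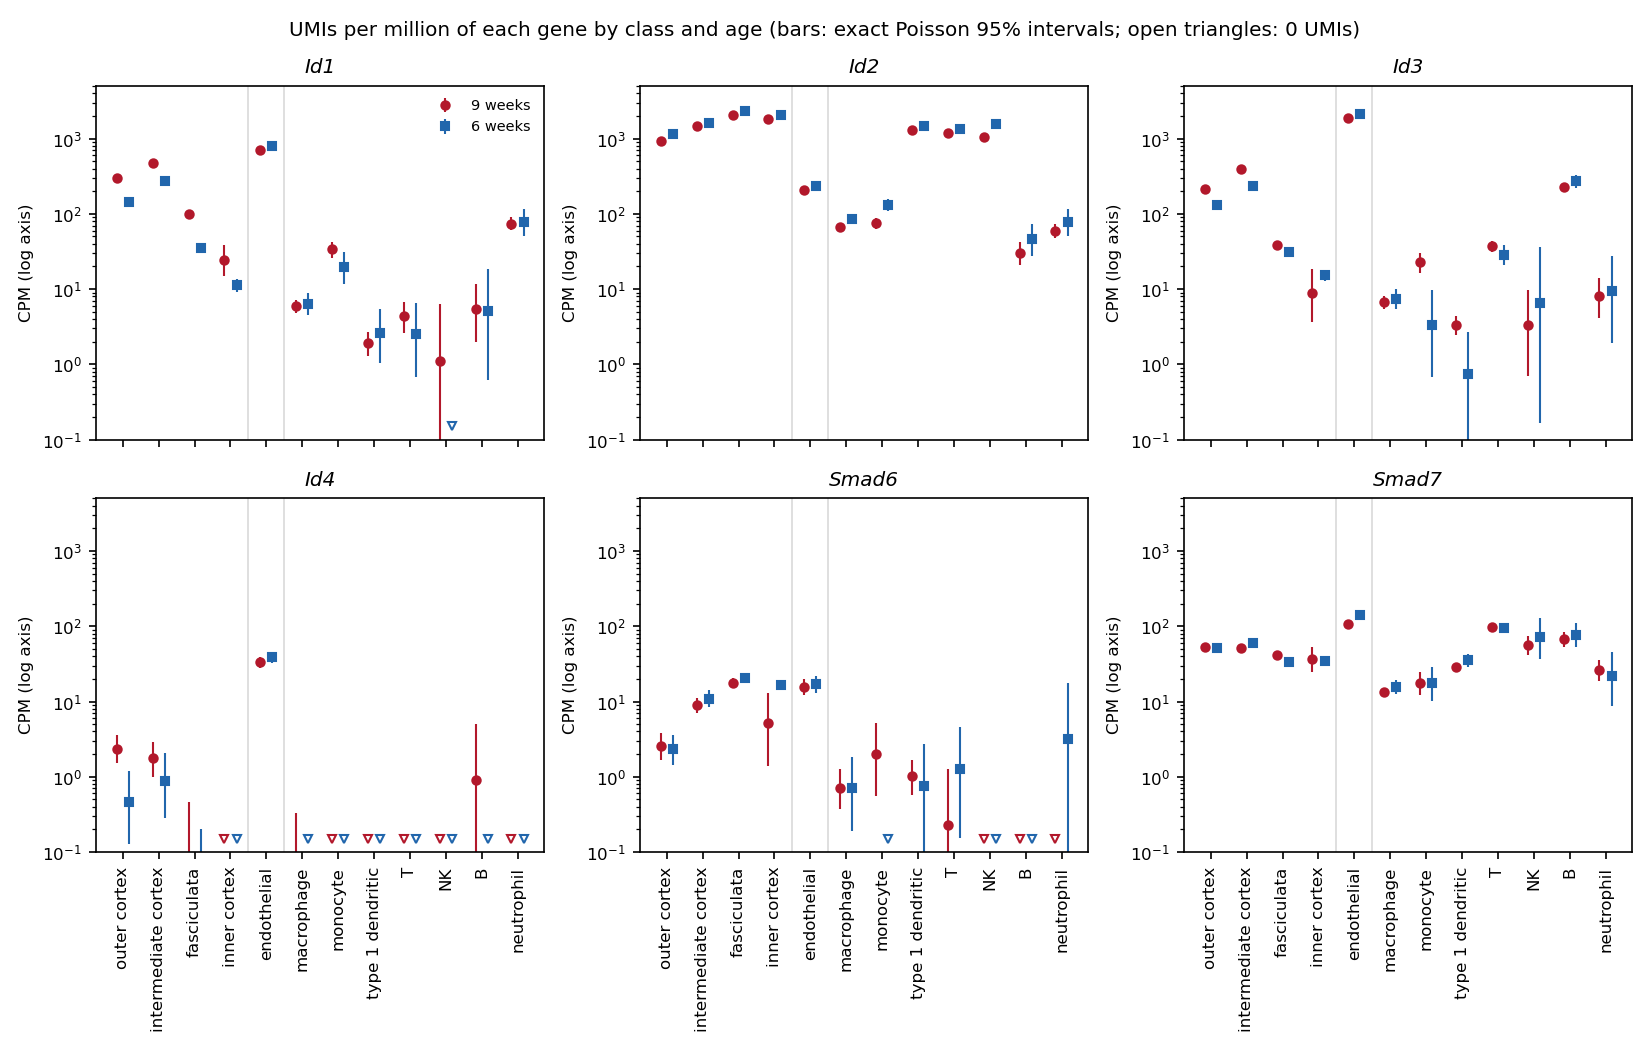
Level of each of the 6 genes in CPM (log axis, from 0.1) in 12 cell classes, with 9 weeks (circles) left of 6 weeks (squares), exact Poisson 95% intervals as bars and open triangles where no UMI was counted; points below 0.1 are off the axis. Id1 and Id3 peak in endothelial-like cells, at 701 and 1869 CPM at 9 weeks, Id2 is high in cortex, type 1 dendritic-like, T-like and NK-like cells, and Id4 passes 10 CPM in endothelial-like cells alone.

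Id1 was highest in endothelial-like cells, where it stood at 701 CPM (676 to 727) at 9 weeks, against 801 CPM (771 to 831) at 6 weeks. Intermediate-cortex-like cells came next, with 472 CPM at 9 weeks and 274 CPM at 6 weeks, then outer-cortex-like cells, with 295 CPM and 143 CPM. Fasciculata-like cells followed at 9 weeks with 99.4 CPM, against 35.4 CPM at 6 weeks, when neutrophil-like cells with 78.6 CPM stood above them. At both ages the intervals of neighbours in the order above monocyte-like cells were apart. Macrophage-like, B-like, T-like, type 1 dendritic-like and NK-like cells lay below 10 CPM, with neighbouring intervals that overlapped. In macrophage-like cells 5.93 CPM were counted at 9 weeks and 6.38 CPM at 6 weeks, of which free RNA, estimated from steroidogenic genes, could give 5.26 CPM and 2.03 CPM.

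Among the larger clusters of the cortex Id1 and Id3 peaked in the intermediate one, while Id2 and Smad6 were lowest in the outer one. The small cycling outer-cortex-like cluster 55, of 12 cells at 9 weeks and 7 at 6 weeks, lay above it in Id1 and Id3. Its values are given further below. From the outer-cortex-like cluster 3 through the intermediate cluster 4 and the fasciculata-like clusters 15 and 1 to the inner-cortex-like cluster 8, Id1 stood at 215, 393, 119, 38.0 and 12.1 CPM with both ages pooled. Over the same clusters Id3 had 164 CPM in cluster 3, 330.0 CPM in cluster 4, 42.7 CPM in cluster 15, 30.6 CPM in cluster 1 and 14.8 CPM in cluster 8. Id2, in contrast, was lowest in cluster 3 with 1031 CPM, and reached 2099 CPM in cluster 15 and 2279.5 CPM in cluster 1. Smad6 was lowest in cluster 3 as well, with 2.18 CPM, and had 9.78 CPM in cluster 4, 17.7 CPM in cluster 15, 20.2 CPM in cluster 1 and 15.8 CPM in cluster 8. The order of clusters 15 and 1 for Smad6 turned with age, with 13.4 CPM in cluster 15 and 20.6 CPM in cluster 1 at 9 weeks, and 24.98 CPM and 20.1 CPM at 6 weeks. Smad7 lay between 34.4 CPM in cluster 1 and 54.9 CPM in cluster 4. Read within each age, neighbouring clusters had intervals apart for Id1 at both ages and for Id3 at 9 weeks. At 6 weeks Id3 overlapped between clusters 15 and 1. For Smad6 clusters 3 and 4 were apart at both ages, and clusters 4 and 15 at 6 weeks only.

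**Figure D2:**
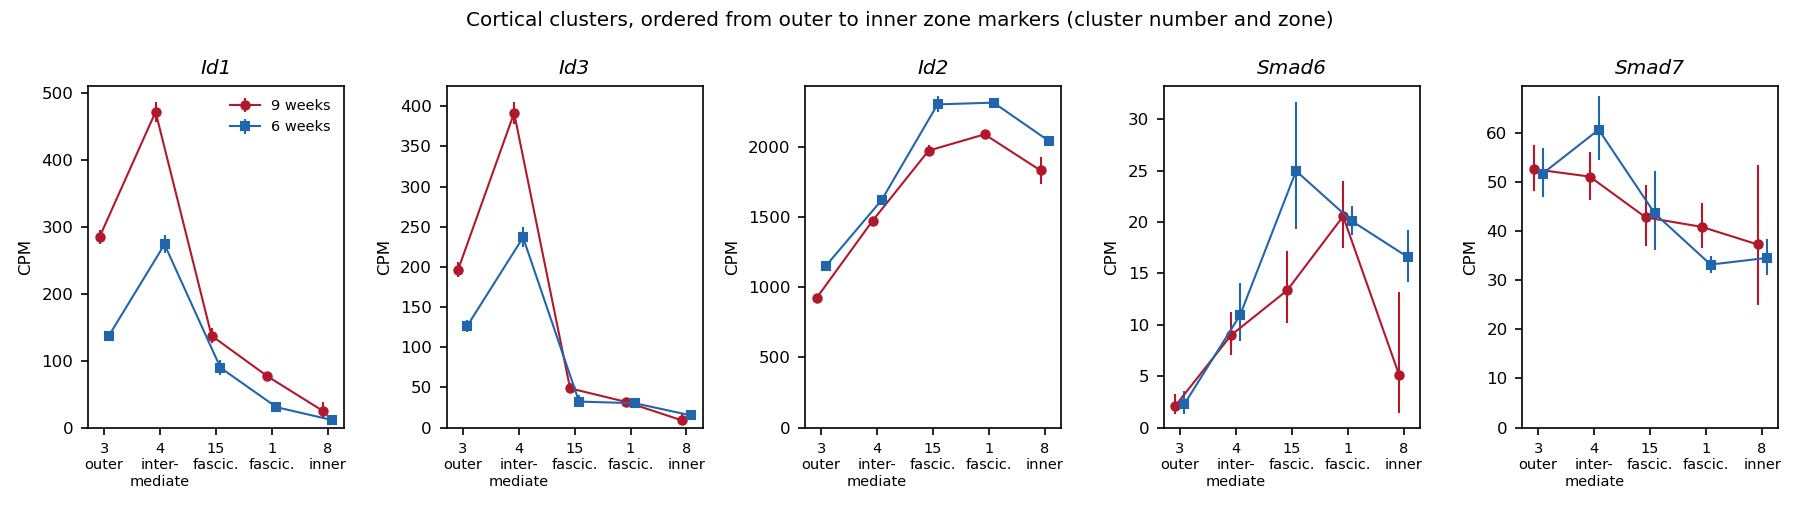
Level in CPM of 5 of the genes in 5 adrenocortical-like clusters, ordered from outer to inner zone markers, with 9 weeks (circles) left of 6 weeks (squares) and exact Poisson 95% intervals; lines only join the points of an age. Among these 5 clusters Id1 and Id3 peak in cluster 4, where Id1 had 472 CPM at 9 weeks and 274 CPM at 6 weeks, while Id2 and Smad6 are lowest in the outer cluster 3.

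Between the ages, Id1 and Id3 were higher at 9 weeks within the outer zones of the cortex, and the other members were not. In outer-cortex-like cells 4 members were measured and 2 were higher by the fold, beside 1.26% of 8395 genes measured in these cells, and 0 were lower, beside 0.417%. Id1 had 2859 UMIs at 9 weeks, 295 CPM (284 to 306), against 1223 UMIs and 143 CPM (135 to 151) at 6 weeks, 2.06-fold higher with a range of 1.88 to 2.26. Id3 had 213 CPM (204 to 223) at 9 weeks, against 132 CPM (125 to 140.3) at 6 weeks, 1.61-fold higher with a range of 1.46 to 1.79. Neither pair of intervals overlapped. Id2 stood at 936 CPM at 9 weeks and 1152 CPM at 6 weeks, a ratio of 0.812, and Smad7 at 52.3 CPM and 51.7 CPM. Smad6 and Id4 lay under the floor, with 2.58 CPM and 2.37 CPM at 9 weeks, against 2.34 CPM and 0.468 CPM at 6 weeks.

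In intermediate-cortex-like cells 5 members were measured, 2 were higher, beside 1.35% of all genes, and 0 were lower, beside 0.9%. Id1 stood at 472 CPM (457 to 487) at 9 weeks, against 274 CPM (260.4 to 288) at 6 weeks, 1.72-fold higher with a range of 1.59 to 1.87. Id3 stood at 392 CPM (378 to 405) at 9 weeks, against 237 CPM (224 to 249.7) at 6 weeks, 1.65-fold higher with a range of 1.52 to 1.81. Both were thus apart by more than counting error. Smad6 had 9.00 CPM at 9 weeks and 10.96 CPM at 6 weeks, and Smad7 51.1 CPM and 60.6 CPM, with intervals that overlapped for each.

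Over all fasciculata-like cells, as their clusters fell, the Id1 ratio was wider still. Of 5 members measured 1 was higher, beside 1.64% of all genes, and 0 were lower, beside 0.977%. Id1 stood at 99.4 CPM (93.9 to 105) at 9 weeks, against 35.4 CPM (33.6 to 37.2) at 6 weeks, 2.81-fold higher with a range of 2.52 to 3.13. Cluster 1 held 455 of these cells at 9 weeks and 2476 at 6 weeks, and cluster 15 held 250 at 9 weeks and 156 at 6 weeks, so both were also read alone. Id1 had 137 CPM at 9 weeks and 89.5 CPM at 6 weeks in cluster 15, and 76.6 CPM and 30.6 CPM in cluster 1, with intervals apart in both. Neither of these clusters alone reached the ratio of the zone, in which cluster 15, richer in Id1, held a larger part of the 9-week cells. With clusters weighted alike the ratio of the zone was smaller, as given with the other settings. Id3 differed less in fasciculata-like cells, with 38.2 CPM at 9 weeks and 30.9 CPM at 6 weeks, a ratio of 1.24 that did not pass the fold, though its log2 value of 0.27 was 0.74 with a minimum of 1000 genes, 0.73 when clustering included the 6 genes and 0.72 at a Leiden resolution of 0.5, all past it. In the inner-cortex-like cluster Id1 rested on 19 UMIs and 24.4 CPM (14.7 to 38.1) at 9 weeks, against 115 UMIs and 11.2 CPM (9.26 to 13.5) at 6 weeks.

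**Figure D3:**
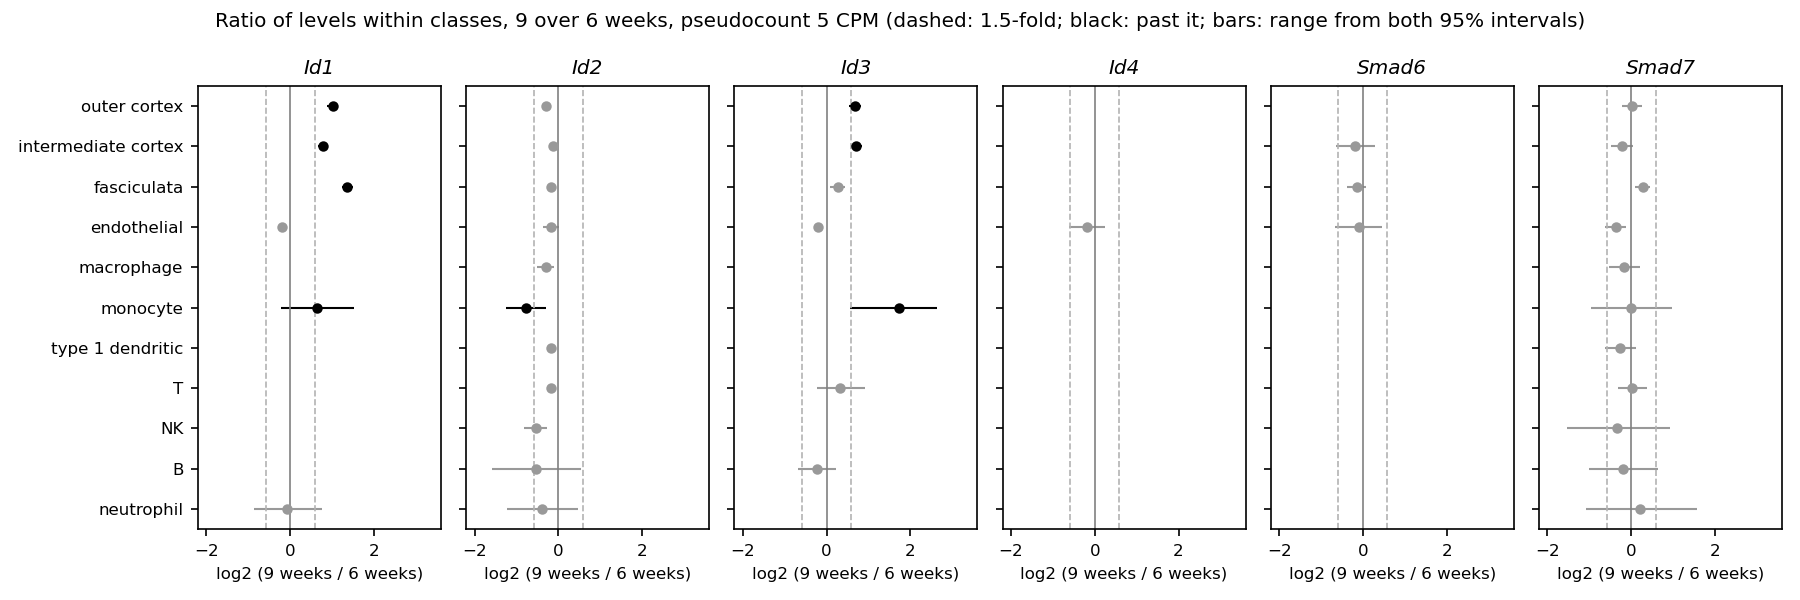
Log2 ratio of levels, 9 weeks over 6 weeks with 5 CPM added to each, for the 6 genes in 11 classes; bars span the range from both 95% intervals, dashed lines mark 1.5-fold and black points lie past it. Id1 is past the fold in the 3 cortical zones and Id3 in 2 of them, while all 11 ratios of Id2 are below 0.

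Id1 was also found in a larger share of cells of each zone at 9 weeks, and Id3 in those of the outer-cortex-like and intermediate-cortex-like cells. With each cell thinned to 2000 UMIs, Id1 was found in 36.1% of outer-cortex-like cells at 9 weeks (exact Clopper-Pearson 95% interval 32.4% to 39.8%) and 19.5% at 6 weeks (16.3% to 23.0%). In intermediate-cortex-like cells the shares were 49.9% at 9 weeks and 33.8% at 6 weeks, and in fasciculata-like cells 14.2% and 5.92%. Id3 was found in 29.5% of outer-cortex-like cells at 9 weeks and 19.6% at 6 weeks, and in 49.3% and 34.9% of intermediate-cortex-like cells. Without thinning the Id1 shares were 77.5% at 9 weeks and 57.1% at 6 weeks in outer-cortex-like cells, 84.3% and 69.2% in intermediate-cortex-like cells, and 50.3% and 23.7% in fasciculata-like cells. The Id3 shares without thinning were 70.0% at 9 weeks and 54.3% at 6 weeks in outer-cortex-like and 83.9% and 68.2% in intermediate-cortex-like cells. Thinning left out 2 cells at 9 weeks and 8 at 6 weeks of the outer-cortex-like cells, 21 and 28 of the intermediate-cortex-like cells and 21 and 19 of the fasciculata-like cells. Macrophage-like cells, a class low in Id1, had it in 0.846% of thinned cells at 9 weeks and 1.07% at 6 weeks. The cortical shares lie above these. Median depths of macrophage-like cells were 7100.5 UMIs at 9 weeks and 5766 at 6 weeks. In outer-cortex-like cells they were 13884.5 at 9 weeks and 14031 at 6 weeks.

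The markers of zone differed little between the ages in outer-cortex-like cells and more in the other zones. All 6 outer-zone markers were measured in outer-cortex-like cells and none passed the fold, with Dab2 at 1680.2 CPM at 9 weeks and 1611 CPM at 6 weeks. In intermediate-cortex-like cells Cyp2f2 was lower at 9 weeks (2.81 CPM, against 52.3 CPM at 6 weeks), and in fasciculata-like cells too (272 CPM, against 926 CPM). Cells were therefore sorted into 5 bins by their share of outer-zone among all zone-marker UMIs and Id1 was compared bin by bin, a step chosen after the data had been seen. Id1 was higher at 9 weeks in all 5 bins of each zone, by 1.63-fold to 2.72-fold in outer-cortex-like cells, 1.56-fold to 1.91-fold in intermediate-cortex-like cells and 2.18-fold to 3.63-fold in fasciculata-like cells. Id3 was higher by 1.08-fold to 2.08-fold in the outer-cortex-like bins, and the lowest of these was the bin richest in outer-zone markers, with 188 CPM at 9 weeks and 173 CPM at 6 weeks. In intermediate-cortex-like cells the Id3 ratios ran from 1.54 to 1.72, and in fasciculata-like cells from 0.861 to 1.26.

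**Figure D4:**
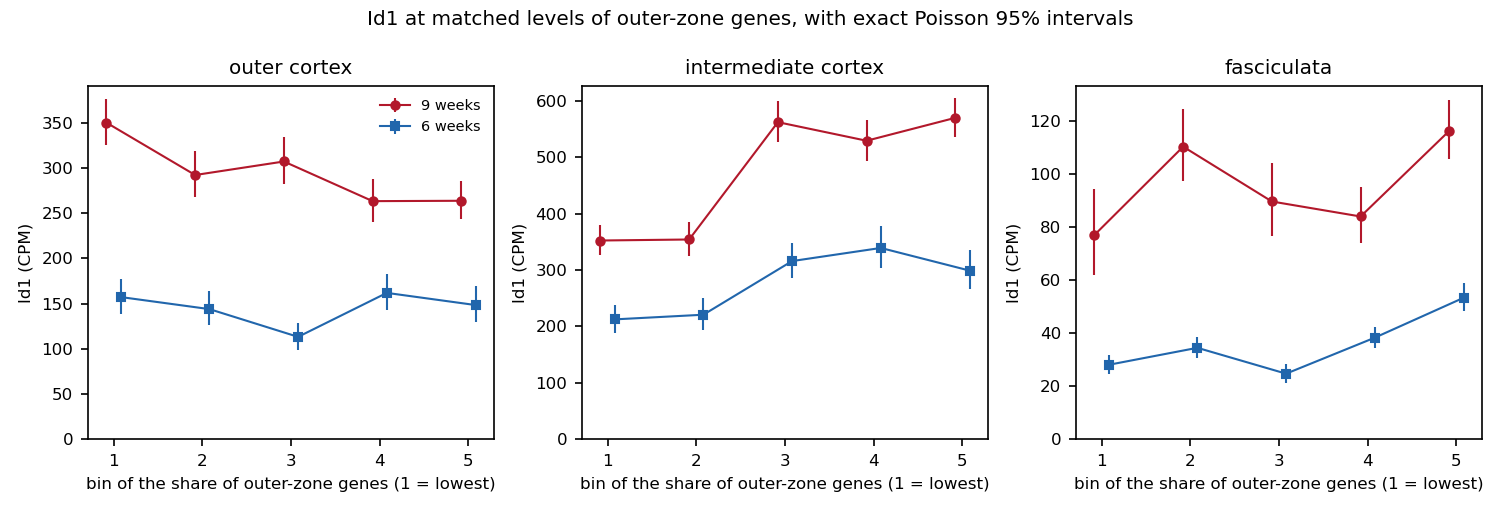
Id1 level in CPM against 5 bins of the share of outer-zone genes among zone-marker UMIs, in 3 cortical zones, with 9 weeks (circles) and 6 weeks (squares) and exact Poisson 95% intervals; the vertical axes start at 0 and differ between panels. The 9-week points lie above the 6-week points in every bin, at 350.1 CPM against 157 CPM in the lowest outer-cortex-like bin.

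Genes of other lists also differed in these cells. Of 12 dissociation stress genes measured in outer-cortex-like cells, 5 were higher at 9 weeks, beside 1.26% of all genes. Jun alone was lower, beside 0.417%. The stress genes summed to 804 CPM at 9 weeks and 432 CPM at 6 weeks. Most of that difference lay in Nr4a1, with 359 CPM at 9 weeks and 57.3 CPM at 6 weeks. Egr1 had 29.8 CPM and 3.28 CPM. In intermediate-cortex-like cells the stress genes summed to 452 CPM at 9 weeks and 459 CPM at 6 weeks, and in fasciculata-like cells to 235 CPM and 185 CPM. With outer-cortex-like cells weighted by their chance of holding 0 stress-gene UMIs after thinning to a common depth, a step also chosen after the data had been seen, the log2 ratio of Id1 was 1.06 and that of Id3 0.80, against 1.02 and 0.67 over all cells. A list of myeloid genes, which cortical cells should lack, was also higher at 9 weeks, in sum 184 CPM at 9 weeks against 91.1 CPM at 6 weeks in outer-cortex-like, 790.4 CPM against 177 CPM in intermediate-cortex-like and 133 CPM against 56.0 CPM in fasciculata-like cells. With the same weighting on myeloid genes the log2 ratio of Id1 was 0.94 in outer-cortex-like, 0.69 in intermediate-cortex-like and 1.38 in fasciculata-like cells. That of Id3 in outer-cortex-like cells was then 0.57, at 201 CPM at 9 weeks and 133 CPM at 6 weeks, which is under the fold.

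Because Id1 and Id3 are highest in endothelium, its 9 markers were read in cortical cells. Their sum in outer-cortex-like cells was 36.6 CPM at 9 weeks and 20.4 CPM at 6 weeks, in intermediate-cortex-like cells 65.1 CPM and 35.0 CPM, and in fasciculata-like cells 10.8 CPM and 7.25 CPM, against 14781 CPM and 14473 CPM in endothelial-like cells. Of the 9, Kdr alone reached 10 CPM in outer-cortex-like and intermediate-cortex-like cells, and none did in fasciculata-like cells. Weighted to cells without endothelial UMIs, Id1 kept log2 ratios of 1.01, 0.78 and 1.37 in the 3 zones. The mesenchymal and mural markers each stayed below 1 CPM in all 3 zones at both ages. Leaving out the 12 cells at 9 weeks and 7 at 6 weeks of the cycling outer-cortex-like cluster 55, in which Id1 stood at 639 CPM and Id3 at 744 CPM, gave log2 ratios of 1.03 for Id1 and 0.62 for Id3.

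Endothelial-like cells showed a small difference the other way. All 6 members were measured there, 0 were higher, beside 1.17% of all genes, and 0 lower, beside 1.3%. Id3 stood at 1869 CPM (1827 to 1910.4) at 9 weeks, against 2148 CPM (2099.9 to 2198) at 6 weeks, a ratio of 0.870 with a range of 0.832 to 0.910. The Id1 ratio was 0.876, with a range of 0.814 to 0.943. Smad7 had 108 CPM (98.4 to 119) at 9 weeks, against 141 CPM (129 to 154) at 6 weeks, a ratio of 0.765. The intervals of these 3 genes were apart, though none of the ratios passed the fold. The share of all genes with intervals apart is not given, so these 3 cannot be set beside a background. With a minimum of 1000 genes per cell Smad7 did pass the fold, at a log2 ratio of -0.61. Id2 (206 CPM at 9 weeks and 233 CPM at 6 weeks), Id4 (33.6 CPM and 39.0 CPM) and Smad6 (15.7 CPM and 17.2 CPM) were each lower at 9 weeks with overlapping intervals. In thinned cells Id1 was found in 58.7% and 63.2%, Id3 in 88.9% and 89.9% and Smad7 in 17.3% and 23.7% of endothelial-like cells at 9 and 6 weeks, with 384 and 673 cells left out as too shallow, and in 63.8% and 61.1%, 90.5% and 87.8%, and 22.2% and 23.1% without thinning.

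The 6 endothelial-like clusters spanned a wide range of Id1, and their share of cells differed between ages. Cluster 5, led by Gpihbp1 and Esm1, held 766 cells at 9 weeks and 367 at 6 weeks, and cluster 14 held 50 at 9 weeks and 400 at 6 weeks. Pooled over ages, Id1 was lowest in cluster 5 with 507 CPM (481 to 533) followed by cluster 12 (579.9 CPM), 17 (913 CPM), 14 (956 CPM) and 9 (1107 CPM), and highest in cluster 46 with 1555 CPM (1289 to 1861). By age the lower end of that order turned, with 515 CPM in cluster 5 and 481 CPM in cluster 12 at 9 weeks, overlapping, and 486 CPM and 636 CPM at 6 weeks, apart. Clusters 14 and 17 overlapped at both ages (880.5 CPM and 914 CPM at 9 weeks, 964 CPM and 911 CPM at 6 weeks), and cluster 9, with 1065 CPM at 9 weeks and 1160 CPM at 6 weeks, had the highest level of these 5 at both. Cluster 46 was not split by age. Cluster 46, of 31 cells, carried the arterial genes Sox17 at 1765 CPM and Gja4 at 1137 CPM, and cluster 9 carried Efnb2, the arterial ephrin ligand, at 924 CPM. At least 3 genes of the arterial list marked every cluster but 12, so cluster 5, lowest in Id1 when pooled, was marked too. Id2 was lowest in cluster 5 at both ages, with 151 CPM at 9 weeks and 129 CPM at 6 weeks. Id4 instead was highest in cluster 12, with 62.3 CPM (50.1 to 76.7), against 17.9 CPM (11.8 to 26.0) in cluster 9. Smad6 stood at 157 CPM (81.0 to 274) in cluster 46, on 12 UMIs, and between 11.01 CPM and 19.2 CPM in the other 5 clusters. Smad7 was highest in cluster 9, with 200.4 CPM (179 to 224), and in cluster 46, and lowest in cluster 5 with 82.6 CPM. In the order of pooled Id1, the receptor Acvrl1 had 93.9, 112, 104, 101 and 125 CPM in clusters 5, 12, 17, 14 and 9. It had 379 CPM in cluster 46, on 29 UMIs. Its partner Eng ran in another order, with 707, 1116, 697, 632 and 433 CPM in clusters 5, 12, 17, 14 and 9. Eng had 719 CPM in cluster 46.

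**Figure D5:**
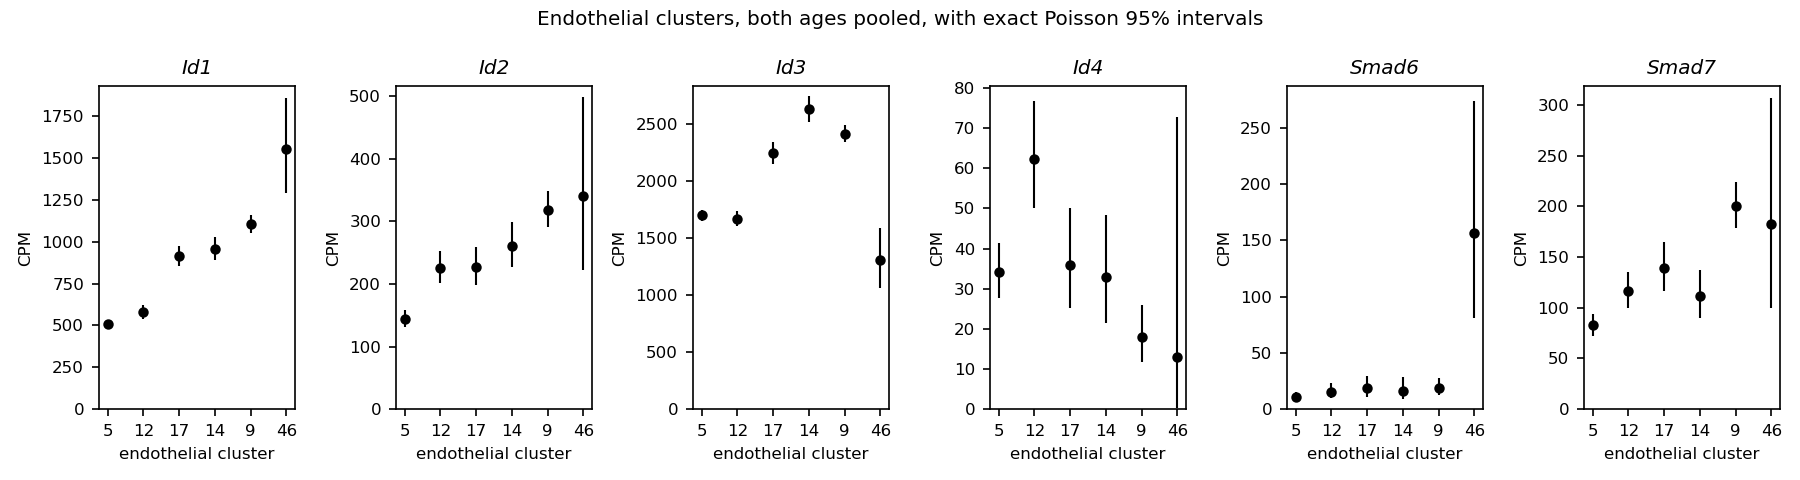
Level in CPM of the 6 genes in 6 endothelial-like clusters, both ages pooled, ordered by their Id1 level, with exact Poisson 95% intervals; the vertical axes start at 0 and differ between panels. Id1 runs from 507 CPM in cluster 5 to 1555 CPM in cluster 46, Id4 is highest in cluster 12, and Smad6 stands out in cluster 46.

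Cluster by cluster, the ages overlapped in some vessel clusters and lay apart in others, and the difference between clusters was not tested. In cluster 5 Id1 had 515 CPM at 9 weeks and 486 CPM at 6 weeks, and Id3 1709 CPM and 1672 CPM. In cluster 12 Id1 had 481 CPM at 9 weeks and 636 CPM at 6 weeks, and in cluster 17 Id3 had 2069.7 CPM at 9 weeks and 2616 CPM at 6 weeks, both with intervals apart. Weighting the clusters alike in both libraries gave endothelial log2 ratios of -0.09 for Id1, -0.13 for Id3 and -0.34 for Smad7, against -0.19, -0.20 and -0.37 as the clusters fell.

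The immune classes differed in their levels of Id2, Id3 and Smad7. Id2 was high in type 1 dendritic-like cells, with 1301 CPM (1283 to 1319) at 9 weeks, against 1480.3 CPM (1434 to 1527) at 6 weeks, in T-like cells, with 1176 CPM and 1329 CPM, and in NK-like cells, with 1062 CPM and 1551 CPM. It was low in macrophage-like (67.5 CPM at 9 weeks and 84.3 CPM at 6 weeks), neutrophil-like (58.8 CPM and 78.6 CPM) and B-like cells (30.6 CPM and 46.6 CPM). In macrophage-like cells free RNA could give 35.5 CPM of Id2 at 9 weeks and 39.9 CPM at 6 weeks. It could give 29.8 CPM at 9 weeks and 75.6 CPM at 6 weeks in B-like cells, and 27.1 CPM and 70.4 CPM in neutrophil-like cells, so Id2 is read as background in B-like cells at both ages and in neutrophil-like cells at 6 weeks. Type 2 dendritic-like cells, with 66 cells at 9 weeks and 40 at 6 weeks, had 395 CPM and 489 CPM of Id2.

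Within T-like cells Id2 and Id3 were split between clusters. Clusters 10 and 16, which carry Cxcr6, Ccl5 and Nkg7, had 1474 CPM and 1432 CPM of Id2, and 25.6 CPM and 30.1 CPM of Id3, with ages pooled. Cluster 19, with Cd8b1, Il7r and Dapl1, had 136 CPM (115 to 160) of Id2, 68.6 CPM (53.9 to 86.0) of Id3 and 195 CPM (169 to 223) of Smad7, against 71.6 CPM and 80.9 CPM of Smad7 in clusters 10 and 16. In cluster 19 alone, Id2 stood at 132 CPM at 9 weeks and 154 CPM at 6 weeks. Per cell at 9 weeks, Id2 was found in 42.6% (28.3% to 57.8%) of thinned T-like cells with an Id3 UMI and in 70.1% (66.7% to 73.4%) of those without. B-like cells were the immune class with the most Id3, 230.2 CPM (203 to 260.2) at 9 weeks, against 272 CPM (223 to 329) at 6 weeks, found in 30.2% and 35.2% of thinned cells and in 38.1% and 40.7% without thinning.

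By age, no member passed the fold in 6 of the 7 immune classes. In macrophage-like cells 2 members were measured and none was called, beside 1.39% of all genes higher and 2.29% lower. The same held for 2 members in type 1 dendritic-like cells (1.38% and 1.14%), 3 in T-like cells (3.61% and 2.92%), 2 in NK-like cells (24.4% and 11%), 3 in B-like cells (16.5% and 6.21%) and 3 in neutrophil-like cells (10.5% and 24.2%). The background was highest in the NK-like, B-like and neutrophil-like classes, which held 50, 135 and 192 cells at 6 weeks. Id3 in T-like cells had 37.1 CPM at 9 weeks and 28.4 CPM at 6 weeks, and Id1 in neutrophil-like cells 74.3 CPM and 78.6 CPM, both with overlapping intervals.

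Monocyte-like cells were the exception, on small counts. Of 4 members measured, 2 were higher, beside 7.6% of all genes, and 1 was lower, beside 4.87%. Id3 had 45 UMIs at 9 weeks, 22.7 CPM (16.5 to 30.4), against 3 UMIs at 6 weeks, 3.31 CPM (0.682 to 9.66), a ratio of 6.86 with a range of 1.71 to 44.5. With both ages pooled these 48 UMIs lay in 22 cells. Id3 was found in 3.07% of thinned cells at 9 weeks and 0.826% at 6 weeks, and without thinning in 8.26% and 2.42%. The intervals of these shares overlapped both times. Id2 was lower, with 75.1 CPM (63.5 to 88.2) at 9 weeks, against 131 CPM (109 to 157) at 6 weeks, a ratio of 0.573 with a range of 0.405 to 0.812. Id1 passed the fold with 33.8 CPM at 9 weeks and 19.8 CPM at 6 weeks, but its intervals overlapped, and it missed the fold without doublet removal (log2 ratio 0.50) and at a resolution of 0.5 (0.32). Of the Id3 UMIs at 9 weeks, 12 came from cluster 21, 21 from cluster 28 and 12 from cluster 30, while each of these clusters had 1 UMI at 6 weeks.

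Id2 stood below its 6-week level in all 11 classes in which it was measured, by small steps that passed the fold in monocyte-like cells alone. Its ratio lay between 0.573 in monocyte-like cells and 0.910 in intermediate-cortex-like cells, and the intervals of the ages were apart in 8 of the 11. No share of all genes is given beside these counts, so they cannot be set beside a background. The B-like and neutrophil-like cells are among the 11 but not among the 8. In B-like and neutrophil-like cells, where Id2 lay near background, the direction turned under other settings: the B-like log2 ratio of -0.54 became 0.68 without doublet removal and 0.73 when clustering included the 6 genes, and the neutrophil-like ratio of -0.39 became 1.48 after subtraction of free RNA. In fasciculata-like cells it stood at 2042 CPM (2017 to 2068) at 9 weeks, against 2309 CPM (2294 to 2323) at 6 weeks. Summed over all immune cells the order was the other way, with 637 CPM at 9 weeks and 576 CPM at 6 weeks, where 978 cells at 9 weeks and 189 at 6 weeks were type 1 dendritic-like. Summed over all adrenocortical-like cells, Id1 stood at 260.2 CPM at 9 weeks and 65.5 CPM at 6 weeks and Id3 at 189 CPM and 58.7 CPM, wider gaps than within any zone, in a sum over zones that held different shares of the cells at the 2 ages. Of the other members, Id1 stood above its 6-week level by any margin, within or past the fold, in 4 of the 6 classes in which it was measured. Id3 did so in 5 of 7, Smad7 in 5 of 11 and Smad6 in 0 of 3.

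At the settings used for the main values, neither inhibitory Smad passed the fold by age in any class. Smad6 in fasciculata-like cells had 17.8 CPM (15.5 to 20.4) at 9 weeks, against 20.3 CPM (19.0 to 21.7) at 6 weeks. Within that zone it was lower in cluster 15, with 13.4 CPM (10.2 to 17.2) at 9 weeks, against 24.98 CPM (19.4 to 31.7) at 6 weeks, and not in cluster 1, with 20.6 CPM and 20.1 CPM. Smad7 in fasciculata-like cells had 42.0 CPM (38.5 to 45.8) at 9 weeks, against 33.9 CPM (32.2 to 35.7) at 6 weeks, a ratio of 1.24 with intervals apart, unlike in the outer-cortex-like and intermediate-cortex-like cells. In T-like cells, its highest immune class, Smad7 had 97.4 CPM and 95.3 CPM at 9 and 6 weeks. A monocyte-like level of 17.6 CPM was counted at both ages.

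In outer-cortex-like, intermediate-cortex-like and endothelial-like cells, Id3 was found more often in cells that also had an Id1 UMI. In thinned outer-cortex-like cells at 9 weeks, Id3 was found in 44.4% (38.0% to 50.9%) of cells with an Id1 UMI and in 21.1% (17.3% to 25.3%) of those without, and at 6 weeks in 35.5% and 15.8%. In intermediate-cortex-like cells the shares were 59.6% and 39.1% at 9 weeks and 47.4% and 28.5% at 6 weeks. In endothelial-like cells they were 94.0% and 81.8% at 9 weeks, and 95.7% and 79.9% at 6 weeks. In fasciculata-like cells they were 17.2% (10.3% to 26.1%) and 6.53% (4.69% to 8.82%) at 9 weeks, and at 6 weeks 8.97% (4.99% to 14.6%) and 5.45% (4.59% to 6.42%), which overlapped. Endothelial-like cells with an Id1 UMI also carried Smad7 more often, in 21.8% (18.7% to 25.1%) against 10.9% (8.23% to 14.02%) at 9 weeks, while at 6 weeks the shares of 26.7% (23.0% to 30.7%) and 18.4% (14.3% to 23.2%) had intervals that overlapped. Id2 too was found more often with Id1 in endothelial-like cells, in 35.0% (31.4% to 38.7%) against 20.3% (16.8% to 24.2%) at 9 weeks. At 6 weeks the shares were 41.6% (37.4% to 45.9%) and 22.0% (17.5% to 27.0%), and the intervals were apart at both ages. For Id2 in fasciculata-like cells no such split could be seen, since 95.7% of cells at 9 weeks and 97.3% at 6 weeks carried it. Clusters within a class differ in several members at once, and the pairs were not separated by cluster.

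Across the 22 profiles of 11 classes at 2 ages, which share libraries and differ in depth, the level of Id1 ran with those of Id3 (Pearson r of log2 levels 0.73) and Smad6 (0.73), and that of Id3 with Id4 (0.75). Id2 ran with none of the other Ids (0.06 with Id1, -0.05 with Id3, -0.10 with Id4). Among 12113 genes, those with the most similar profiles were Tinagl1, Oaz2 and Slc25a27 for Id1 (r 0.95 to 0.93), Serpinb6b, Uck2 and Eloc for Id2 (0.91 to 0.86), and Vangl2 and Etnk1 for Id3 (both 0.93). For Id4 they were Adamts7, Adamts1 and Flrt3, all above 0.99, for Smad6 Fscn1, Cavin3 and Trim2 (0.97 to 0.94), and for Smad7 Pik3ip1, Tmem263 and Ppp1r16b (0.90 to 0.88). These are descriptions over few classes. Id4 passed 10 CPM in endothelial-like cells alone, so its correlations mainly set that class apart from the rest.

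The rest of the pathway was read from 11 lists of 56 genes, from ligands to E proteins. In outer-cortex-like cells 25 were measured, 1 was higher at 9 weeks, beside 1.26% of all genes, and 0 lower, beside 0.417%, with a median log2 ratio of 0.14 beside 0.06 over all genes measured. The 1 gene was Acvr1c, an activin and Nodal receptor, with 20.6 CPM at 9 weeks and 11.8 CPM at 6 weeks, a call lost under TMM scaling. In intermediate-cortex-like cells 0 of 25, in fasciculata-like cells 0 of 22 and in endothelial-like cells 0 of 30 passed the fold either way. Among ligands, Bmp2, which signals through BMP receptors, had 25.8 CPM at 9 weeks and 19.4 CPM at 6 weeks in outer-cortex-like, 45.2 CPM and 39.8 CPM in intermediate-cortex-like, and 23.6 CPM and 14.5 CPM in fasciculata-like cells. Among receptors, Bmpr1a in outer-cortex-like cells had 80.5 CPM at 9 weeks and 70.2 CPM at 6 weeks, and the co-receptor Tgfbr3 130.1 CPM and 108 CPM.

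None of the Smads that carry the signal passed the fold in outer-cortex-like cells. Smad1 stood at 29.4 CPM at 9 weeks and 28.0 CPM at 6 weeks, Smad5 at 68.6 CPM and 67.8 CPM, and the shared partner Smad4 at 93.5 CPM and 76.8 CPM. The repressor Skil had 110.3 CPM at 9 weeks and 81.5 CPM at 6 weeks. Of the E proteins that Id proteins bind, Tcf4 had 338 CPM at 9 weeks and 327 CPM at 6 weeks in outer-cortex-like, 262 CPM and 283 CPM in intermediate-cortex-like, and 187 CPM and 170.3 CPM in fasciculata-like cells. In endothelial-like cells Tcf4 stood at 1357 CPM at 9 weeks and 1439 CPM at 6 weeks, Eng at 704 CPM and 739.8 CPM, Tgfbr2, the type II TGF-beta receptor, at 798 CPM and 792 CPM, and Bambi, a decoy receptor, at 206 CPM and 158 CPM. In macrophage-like cells 20 of the 56 were measured and 0 passed the fold, with Tgfb1 at 296 CPM at 9 weeks and 258 CPM at 6 weeks and Tgfbr1 at 354 CPM and 342 CPM. In neutrophil-like cells 3 of 17 were higher and 5 lower, beside 10.5% and 24.2% of all genes, and in NK-like cells 4 of 16 were higher and 2 lower, beside 24.4% and 11%. In B-like cells 2 of 14 were higher and 0 lower, beside 16.5% and 6.21%, and in monocyte-like cells 0 of 21 were higher and 2 lower, beside 7.6% and 4.87%. Just 1 was higher and 0 lower in each of the T-like (17 measured, beside 3.61% and 2.92%) and type 1 dendritic-like cells (16 measured, beside 1.38% and 1.14%). In both the gene was Tgfbi, with 12.1 CPM at 9 weeks and 1.26 CPM at 6 weeks in T-like cells. In type 1 dendritic-like cells Tgfbi had 219 CPM and 142 CPM, but in neutrophil-like cells it was lower, with 440 CPM and 817 CPM. The higher genes in neutrophil-like cells were Inhba, Acvrl1 and Acvr1b. Of these Acvrl1 alone had intervals apart, with 74.3 CPM and 6.28 CPM on 110 and 2 UMIs. Nothing is read from numbers of genes this small.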

How the data were processed

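Adrenal cells were captured with the 10x 3' v3.1 chemistry, per the labels. The authors deposited UMI counts per gene and barcode, made with Cell Ranger 6.0.1 on mm10, and list Seurat, per the submitters' processing notes; no source used here names the annotation release. Everything after the deposited counts was recomputed. Filters dropped 221 barcodes at 9 weeks and 161 at 6 weeks for fewer than 500 genes, and 64 and 111 for over 25% mitochondrial UMIs, and Scrublet removed 586 and 475 doublets, 5.57% and 5.52%. UMIs kept totalled 88777418 and 86491599. Both libraries were clustered together with scanpy 1.11.5 and leidenalg 0.10.2 on 2000 variable genes without the 6 members, at resolution 1, with a second clustering of mixed and endothelial cells at 0.5. Clusters were named from marker lists, and 22 of 61 stayed unnamed (567 cells at 9 weeks, 277 at 6 weeks). The members, lists and markers were chosen with earlier results of these data known, and the scoring rule, its thresholds and the second clustering were set after the data were seen. The named genes are the 6 members, list genes, and the 3 genes closest to each member by Pearson correlation, of which 1 is not reported here. Counts were summed per class and library, scaled to CPM and given exact Poisson intervals with scipy 1.17.1. Fold changes used a pseudocount of 5 CPM. The summing and calling steps were tested on simulated data. Replicates within an age were not available, so no p-values were computed. Promoter sequences are RefSeq, GRCm38.p6.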

Additional observations from a re-analysis of the deposited data

Results flagged for a closer look

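Id1 was higher at 9 weeks in outer-cortex-like, intermediate-cortex-like and fasciculata-like cells, with log2 ratios of 1.02, 0.77 and 1.37, and lower in endothelial-like cells, with -0.19. Id3 was higher in outer-cortex-like, intermediate-cortex-like and monocyte-like cells, with log2 ratios of 0.67, 0.71 and 1.74, and lower in endothelial-like cells, with -0.20. These results were picked out because the ages differ in opposite directions in different classes of the same 2 libraries, with intervals of the levels apart on both sides. For Id3 in monocyte-like cells the shares of cells with a UMI had intervals that overlapped. On the endothelial side the log2 ratios were -0.09 for Id1 and -0.13 for Id3 with clusters weighted alike, and in cluster 5, which held the most endothelial-like cells at 9 weeks, Id1 had 515 CPM at 9 weeks and 486 CPM at 6 weeks. Without thinning, Id1 was found in 63.8% of endothelial-like cells at 9 weeks and 61.1% at 6 weeks. With 1 library per age the difference between classes was not tested.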

How the results depend on the processing

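No paired analysis was possible because each age has 1 library. Over all alternatives 357 ratios were recomputed: 0 called ratios changed direction, 79 of 82 calls were kept and 10 were new. The 82 are the 8 main calls counted again in each setting where they could be read. Among ratios not called at the main settings, those of Id2 in B-like and neutrophil-like cells did turn direction, as given above. Over the 39 pairs of gene and class measured at the main settings, the count of 8 calls ran from 8 to 10 where all could be read. Without doublet removal 37 pairs could be read, with 7 of 8 calls kept and 1 new. With a minimum of 1000 genes 31 pairs could be read, with 6 of 6 calls kept and 3 new, and at resolution 0.5 34 pairs, with 5 of 6 kept and 1 new. Without myeloid UMIs 4 of 5 cortical calls were kept. The log2 ratio of Id1 in intermediate-cortex-like cells was 1.04 and that of Id3 0.96 without doublet removal, against 0.77 and 0.71. In fasciculata-like cells the Id1 ratio of 1.37 became 1.05 with clusters weighted alike, 1.58 with a minimum of 1000 genes, 1.58 when clustering included the 6 genes and 1.57 at resolution 0.5. TMM scaling took the count of pathway genes called in the cortical zones, endothelial-like and macrophage-like cells from 1 to 0, the lost call being Acvr1c in outer-cortex-like cells. The cause was not tested. The share of cells with a UMI was higher at 9 weeks, with intervals apart, in 5 pairs of gene and class, in 7 without thinning and in 4 or 5 in separate draws of 1000 UMIs, where Id3 in outer-cortex-like cells had 16.3% at 9 weeks and 11.7% at 6 weeks with overlapping intervals in one draw, and 18.4% and 10.5% with intervals apart in the other. Lower shares at 9 weeks with intervals apart were those of Id2 in outer-cortex-like cells (79.2%, against 86.5% at 6 weeks) and Smad7 in endothelial-like cells (17.3%, against 23.7%). Both overlapped without thinning. The alternatives on stress, myeloid and endothelial genes, outer-zone bins and the cycling cluster were chosen after seeing the data. Intermediate-cortex-like cells could not be found with 1000 genes or at resolution 0.5, neutrophil-like cells with 1000 genes, and NK-like cells without doublet removal.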

Other observations

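Clusters outside the 11 classes are given as values pooled over ages. The mast-or-basophil-like cluster 49, of 26 cells, had Id1 at 276 CPM (180.1 to 404). Cluster 50, unnamed and led by Mgp, Sparcl1 and Col1a2, had Id3 at 860.2 CPM (711 to 1032) and Id1 at 349 CPM in 25 cells. Cluster 56, unnamed and led by Chgb, Chga and Npy, had Id3 at 504 CPM (401 to 627) and Id1 at 224 CPM in 16 cells. Id2 was high in the mature-dendritic-like cluster 47, with 1406 CPM, in the innate-lymphoid-like cluster 53, with 1468 CPM, and in the unnamed cluster 38, led by Mcpt4 and Cma1, with 1074 CPM. It was low in the unnamed cluster 32, led by Siglech and Cox6a2, with 27.4 CPM (13.7 to 49.1), where Id3 stood at 89.8 CPM and Smad7 at 82.3 CPM. Among macrophage-like clusters, number 34, led by Mmp12 and Lpl, had Id2 at 415 CPM (360.4 to 476) in 52 cells. Immature-neutrophil-like cells, found at 9 weeks only (175 cells, against 0 at 6 weeks), had Id1 at 48.6 CPM and Id2 at 140.4 CPM.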
